A study of Caenorhabditis elegans with 14 samples.

Results

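The genes described here are the X-chromosome genes that Caenorhabditis elegans whole worms expressed at a substantial level in every library, whatever the animal or the stage. A gene was taken when the deposited table places it on chromosome X and gives it at least 15 FPKM in each of 13 libraries, and when its name does not start with col-, rpl-, rps-, flp-, nlp-, ins-, clec-, nhr- or vit-, the prefixes of large or tissue-bound families. FPKM counts sequenced fragments scaled by transcript length and library depth, so that levels can be set side by side between genes of different length. The members were thus chosen by their FPKM values in all 13 libraries. The rule gave 259 X members of 2818 X genes with a value, or 9.19%. The same floor and the same family rule gave 2488 of 17558 autosomal genes, or 14.17%, which are the genes the X members are set against. Another 13 X genes met the floor and belong to the families left out.

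The animals came from 2 strains in which sex and X number are uncoupled. XO hermaphrodites were of strain TY2205 and have 1 X chromosome, and XX males were of strain CB5362 and have 2. Young adults were grown for 44 h at 25 °C, with 3 XO hermaphrodite and 4 XX male libraries, and L3 larvae were grown for 24 h, with 3 libraries of each kind. No growth temperature was listed for the L3 larvae. As these strains are described outside the labels, TY2205 carries mutations in her-1, sdc-3 and xol-1, and CB5362 carries mutations in tra-2 and xol-1, so the loss of xol-1 is shared by all 4 groups and no wild-type group is used here. Sex, strain, genotype and X number therefore differ together in every comparison of animals and cannot be told apart. Likewise, stage, hours of growth and perhaps temperature differ together in every comparison of stages, and in the interaction of animal and stage. The labels do not say whether replicates were separate cultures, so p-values measure the spread between these libraries, which may be technical.

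In C. elegans, XX animals normally develop as hermaphrodites and XO animals as males. A dosage compensation complex related to condensin binds both X chromosomes of hermaphrodites and lowers their transcription, so that an XX soma and an XO soma make similar amounts of X-linked RNA. In the germline the X is under a separate form of control: it is largely silent in early germ cells and in sperm production, and becomes active in growing oocytes. X-linked genes include some used by most cells, such as those of energy metabolism, and others used mainly in one tissue, such as those of muscle contraction.

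The targeted genes and the cell markers came first. xol-1, the X-linked switch gene that directs male development, was listed at 0 FPKM in all 13 libraries. sdc-3, a component that brings the dosage compensation complex to the X, averaged 0.251 ± 0.0143 FPKM in XO hermaphrodite young adults and 1.52 ± 0.211 FPKM in XX male young adults (SD, n = 3 and 4). her-1, which promotes male fate in XO animals, averaged 27.9 ± 14.1 FPKM in XO hermaphrodite and 0.642 ± 0.167 FPKM in XX male young adults (SD, n = 3 and 4), a log2 difference of 4.02 (limma adjusted p 4.43e-06). tra-2, which promotes hermaphrodite fate, averaged 36.6 ± 2.61 FPKM in XO hermaphrodite and 18.1 ± 1.13 FPKM in XX male young adults (SD, n = 3 and 4), a log2 difference of 0.98 (limma adjusted p 0.00366). Both were higher in XO hermaphrodite young adults, and an RNA level does not check a mutation that leaves the transcript. Of the 10 genes of the dosage compensation list, none was an X member, although sdc-1 and sdc-2 lie on X. In young adults 8 of these 10 were higher in XO hermaphrodites, 1 was lower and 1 was not called. At L3 0 were higher and 4 were lower, all by limma with an adjusted p under 0.05. Among all genes tested, 33.9% were higher and 33.3% lower in young adults, and 1.26% and 4.31% at L3. The 1 lower in young adults was sdc-3, a gene described as mutated in TY2205, and sdc-3 was also among the 4 at L3. Whole young adults also differed in their marker RNA. The 21 oocyte markers summed to 10568 to 12887 FPKM in XO hermaphrodite young adults, against 383 to 526 FPKM in XX male young adults. The 24 sperm markers summed to 447 to 2142 FPKM in XO hermaphrodite young adults, against 24333 to 39653 FPKM in XX male young adults. The 15 body muscle markers summed to 8604 to 10518 FPKM in XO hermaphrodite young adults, against 21575 to 28514 FPKM in XX male young adults. The sums of the other somatic lists were lower in XO hermaphrodites as well. Neuron markers summed to 492 to 515 FPKM in XO hermaphrodite and 1020 to 1252 FPKM in XX male young adults, and intestine markers to 3560 to 5455 FPKM in XO hermaphrodite and 8964 to 16619 FPKM in XX male young adults. Pharynx muscle markers summed to 144 to 223 FPKM in XO hermaphrodite and 342 to 391.9 FPKM in XX male young adults, and hypodermis markers to 2203 to 3376 FPKM in XO hermaphrodite and 4255 to 8114 FPKM in XX male young adults. A sum can hide single markers. Of the 2 autosomal hypodermis markers at the floor, 1 was called higher in XO hermaphrodites and 0 lower, and the X member elt-3 was lower. Of the 7 autosomal intestine markers at the floor, 4 were called lower and 0 higher. Germline markers were higher in XO hermaphrodites, at 4385 to 4762 FPKM against 1129 to 1383 FPKM in XX male young adults. For every one of these lists the sums of the groups did not overlap. In bulk RNA, fewer cells of a type and less RNA per cell cannot be told apart, and the part of tissue make-up in the results below was not tested. No germline, oocyte, sperm or neuron marker of the fixed lists is an X member.

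In young adults the X members as a class stood lower in XO hermaphrodites than in XX males. The median X member had 46.4, 45.3 and 48.8 FPKM in the 3 XO hermaphrodite libraries, against 112.0, 105.8, 103.1 and 99.6 FPKM in the 4 XX male libraries. Every XO hermaphrodite library was below every XX male library. The median of the autosomal genes at the same floor went the other way, with 79.3, 83.8 and 76.9 FPKM in XO hermaphrodite young adults and 56.1, 53.7, 56.5 and 61.9 FPKM in XX male young adults. On the scale of log2(FPKM + 1), the X median minus the autosomal median was -0.76 ± 0.11 in XO hermaphrodite young adults and 0.87 ± 0.14 in XX male young adults (SD, n = 3 and 4). The difference between the animals was thus -1.63, made of a change of -1.15 in the X median and 0.48 in the autosomal median. X members took 3.02 to 3.32% of all FPKM in XO hermaphrodite young adults, against 5.44 to 5.98% in XX male young adults.

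**Figure D1:**
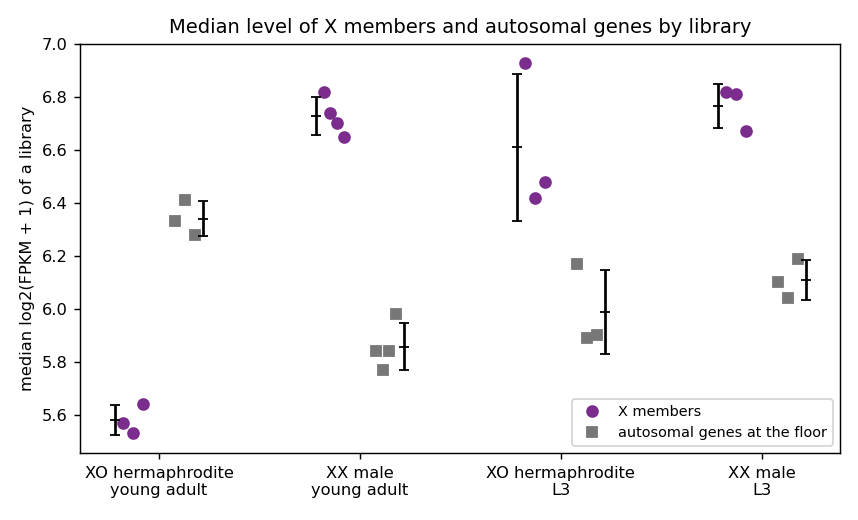
Median of log2(FPKM + 1) over the 259 X members (circles) and the 2488 autosomal genes at the same floor (squares) in each library, by group, with group means and SD in black. X medians lie below autosomal medians in the 3 XO hermaphrodite young adult libraries, by 0.65 to 0.87, and above them in the other groups, by 0.48 to 0.98.

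Larvae did not show that separation. The median X member had 121.2, 84.4 and 88.3 FPKM in XO hermaphrodite L3 larvae, against 112.3, 111.5 and 100.8 FPKM in XX male L3 larvae. Replicate 1 of the XO hermaphrodite larvae was above all XX male larvae, and replicates 2 and 3 were below them. The X median minus the autosomal median was 0.63 ± 0.12 in XO hermaphrodite L3 larvae and 0.66 ± 0.16 in XX male L3 larvae (SD, n = 3 each). The difference of -0.03 is smaller than either SD.

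Gene by gene, 199 of the 259 X members were lower in XO hermaphrodite than in XX male young adults and 5 were higher, by limma on log2(FPKM + 1) with an adjusted p under 0.05. Among all 14628 genes tested, 33.3% were lower and 33.9% were higher, and among the autosomal genes at the floor 19.6% were lower and 47.3% were higher. The share of X members called lower was 76.8%, and all 259 passed the filter on low values. The median difference of the X members was -1.04, with quartiles of -1.47 and -0.59, against 0.45 for the autosomal genes at the floor and -0.11 for all genes tested. In 140 X members, or 54.1%, the difference was -1 or below. The 3 XO hermaphrodite libraries lay entirely below the 4 XX male libraries for 205 X members and entirely above them for 10, where the same held for 38.1% and 37.5% of all genes tested and for 24.4% and 53.7% of the autosomal genes at the floor.

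The direction did not depend on the level of the gene. In young adults the median difference was -0.76 for the 79 X members with a mean of 30 to 60 FPKM, -1.05 for the 71 with 60 to 120 FPKM and -1.29 for the 103 above 120 FPKM. The autosomal genes in these ranges had medians of 0.80, 0.44 and -0.19, so both sets moved down with level. Each of the 5 autosomes had a positive median among its genes at the floor, between 0.26 for chromosome V and 0.56 for chromosome III.

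**Figure D2:**
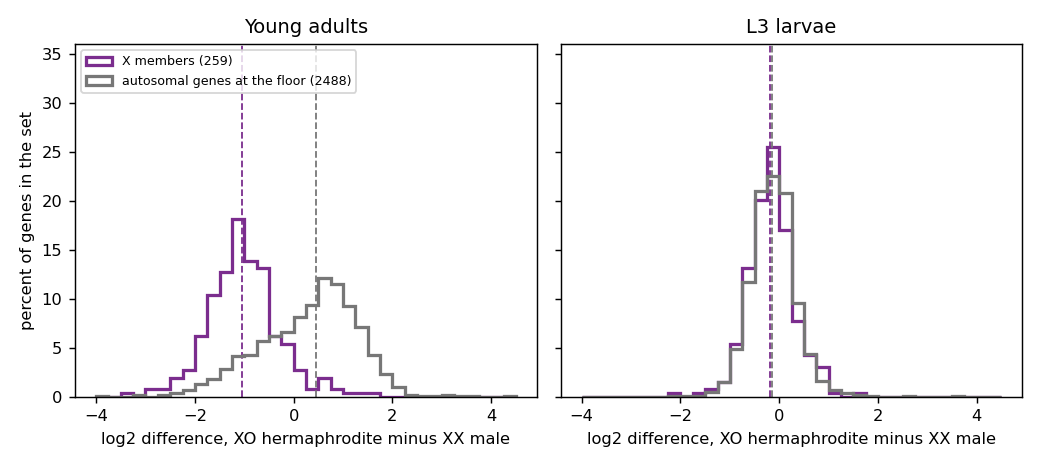
Percent of genes by log2 difference, XO hermaphrodite minus XX male, for the X members and for the autosomal genes at the same floor, in young adults and at L3, with medians as dashed lines. In young adults the X members centre on -1.04 and the autosomal genes on 0.45, and at L3 the medians are -0.18 and -0.14.

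The floor itself bears on these figures, because it was set in all groups at once. Of the 368 X genes that met the floor in the other 3 groups, 109 (29.6%) fell under it in some XO hermaphrodite young adult library, against 236 of 2724 autosomal genes (8.66%). When the XX male young adults were the group left to decide, 12 of 271 X genes (4.43%) fell under it. X genes low in XO hermaphrodite young adults were thus removed more than others, and the members are those that stayed above 15 FPKM. The median young adult difference was nonetheless smaller with a lower floor, at -0.81 with 5 FPKM and -1.18 with 30 FPKM. Over all 1985 X genes tested it was -0.6, with 46.2% lower and 11.2% higher. The 12643 autosomal genes tested had a median of 0.03, with 31.3% lower and 37.5% higher. Just inside were kin-20, with a lowest value of 15.04 FPKM, T08D2.6 with 15.20, B0410.3 with 15.26 and ttr-30 with 15.32 FPKM. Just outside were snx-1 with 14.99 FPKM, F14B8.2 with 14.85, C03A3.2 with 14.80 and mek-1 with 14.70 FPKM.

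Muscle contraction genes were among the most abundant X members. Of 13 X members on this list, 10 were lower in XO hermaphrodite young adults and 0 were higher, with a median difference of -1.39. Its 22 autosomal genes at the floor had 16 lower and 2 higher, with a median of -1.23, so this list moved on both sets of chromosomes. act-4, an actin of body muscle, had 1479, 1074 and 1226 FPKM in XO hermaphrodite young adults and 4754, 5367, 4719 and 3806 FPKM in XX male young adults. The highest XO hermaphrodite library was below the lowest XX male library. The log2 difference was -1.89 (SE 0.21, limma adjusted p 5.94e-06), and act-4 shares near-identical sequence with other actin genes, so its reads may be split among them. At L3 the act-4 libraries of both animals overlapped, at 2794, 1942 and 2148 FPKM in XO hermaphrodites and 3371, 2730 and 2029 FPKM in XX males.

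The thin-filament and myosin partners behaved alike. mlc-2, a regulatory myosin light chain, averaged 981 ± 79 FPKM in XO hermaphrodite and 3421 ± 503 FPKM in XX male young adults (SD, n = 3 and 4), a log2 difference of -1.79. Its near-identical neighbour mlc-1 differed by -1.39, and reads may be split between the pair. Among the troponins, which set the calcium response of the thin filament, tnt-2 differed by -1.76, mup-2 by -1.35 and unc-27, troponin I, by -1.27. csq-1, a calsequestrin that stores calcium in the muscle reticulum, differed by -1.47. All of these passed the test by limma. The members that did not were the profilin pfn-3 with -0.06, the thymosin tth-1 with -0.48, and nmy-1, a non-muscle myosin heavy chain, with 0.70. nmy-1 had 36, 30 and 47.3 FPKM in XO hermaphrodite young adults and 22.1, 21.3, 24 and 22.6 FPKM in XX male young adults, without overlap, at an adjusted p of 0.0665 by limma.

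Of the basement membrane and junction genes, 2 of 3 X members were lower in XO hermaphrodite young adults. ajm-1, an apical junction protein of epithelia, differed by -1.06. let-2, a chain of type IV collagen, averaged 181 ± 33.6 FPKM in XO hermaphrodite and 260 ± 44.5 FPKM in XX male young adults (SD, n = 3 and 4), and its libraries overlapped. Its difference of -0.52 passed with a limma adjusted p of 0.0323, and the call was lost without XO hermaphrodite replicate 2 (adjusted p 0.166), without XX male replicate 1, 2 or 3, and after quantile normalization (-0.02). sdn-1, the syndecan, was at 24.7 ± 4.41 FPKM in XO hermaphrodite and 25.9 ± 2.93 FPKM in XX male young adults.

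Enzymes of energy metabolism made up the list with the most X members. Of 15 X members on the list of glycolysis, citrate cycle and respiration, 13 were lower in XO hermaphrodite young adults and 0 were higher, with a median of -1.31. The 62 autosomal genes of this list had 34 lower, 5 higher and a median of -0.45. gpd-2, a glyceraldehyde 3-phosphate dehydrogenase of glycolysis, had 311, 246 and 363 FPKM in XO hermaphrodite young adults and 1200, 1243, 1148 and 831 FPKM in XX male young adults. At L3 the order was turned round, with 1198, 891 and 897 FPKM in XO hermaphrodites and 813, 675 and 607 FPKM in XX males. The groups did not overlap at either stage. The young adult difference was -1.85 (SE 0.20, limma adjusted p 4.68e-06), and the L3 difference of 0.51 did not pass (limma adjusted p 0.145). The difference between the stages, an interaction of -2.36, passed with a limma adjusted p of 2.76e-05.

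Respiratory chain members of complexes I, II and III and of the ATP synthase were lower in XO hermaphrodite young adults. gas-1, a subunit of complex I, averaged 55.6 ± 10.2 FPKM in XO hermaphrodites and 166.5 ± 14.6 FPKM in XX males (SD, n = 3 and 4). sdha-1 of complex II differed by -1.48, the complex III core proteins ucr-2.1 and ucr-2.2 by -1.63 and -1.31, and the ATP synthase subunits asg-2 and asb-2 by -1.22 and -1.08. In the citrate cycle, C37E2.1, named idhb-1 in the current annotation and a subunit of isocitrate dehydrogenase, differed by -1.44. Of the same list, aco-1 and idh-2 differed by -0.55 and -0.47 and were not called. The list also holds F46H5.3, its most abundant X member, whose place in these routes was not checked. F46H5.3 had 1330, 1241 and 1344 FPKM in XO hermaphrodite young adults and 4026, 4292, 4139 and 4033 FPKM in XX male young adults. Its values were tight within each group, and the difference of -1.66 had an SE of 0.12 (limma adjusted p 2.32e-07).

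Amino acid enzymes followed, with 4 of 5 X members lower in XO hermaphrodite young adults. T01C8.5, an aspartate aminotransferase with the current name got-1.2, averaged 30 ± 5.45 FPKM in XO hermaphrodite and 127.3 ± 9.89 FPKM in XX male young adults (SD, n = 3 and 4). C14F11.1, its counterpart got-2.2, differed by -1.96. fah-1, fumarylacetoacetate hydrolase of tyrosine breakdown, differed by -1.05, and tatn-1, tyrosine aminotransferase at the head of that route, by -0.54 without a call. sams-1, which makes S-adenosylmethionine, differed by -1.09 (limma adjusted p 0.0234), and the call was lost without XO hermaphrodite replicate 2 (adjusted p 0.139) and after quantile normalization (-0.72). asns-2, an asparagine synthetase outside the lists, had 19.8, 25.3 and 34.5 FPKM in XO hermaphrodite young adults and 201.8, 200.6, 171.0 and 144.5 FPKM in XX male young adults. This was 1 of the largest falls, at -2.73 (SE 0.35, limma adjusted p 2.02e-05), and its L3 libraries overlapped.

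Among the role lists, the medians of X and autosomal genes lay furthest apart in protein synthesis and folding. Over all X members and all autosomal genes at the floor, the medians were -1.04 and 0.45. All 3 X members of the translation list, eef-1A.2, pab-2 and ife-2, were lower in XO hermaphrodite young adults, while 37 of the 57 autosomal genes were higher and 4 lower, with medians of -0.81 and 0.70. eef-1A.2, a translation elongation factor, had 520, 487 and 652 FPKM in XO hermaphrodite young adults and 1117, 1065, 968 and 743 FPKM in XX male young adults. The groups did not overlap and the difference was -0.81 (limma adjusted p 0.00193). It was 0.02 after quantile normalization (adjusted p 0.937), and reads may be split with its near-identical copy eef-1A.1. ife-2, a cap-binding protein, passed at an adjusted p of 0.0394 and lost the call when any of 6 of the 7 young adult libraries was left out.

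All 5 X members of the folding and secretion list were lower in XO hermaphrodite young adults, with a median of -1.65, where 37 of 63 autosomal genes were higher, 5 were lower and the median was 0.72. hsp-3, an endoplasmic reticulum chaperone of the BiP type, had 178, 287 and 197 FPKM in XO hermaphrodite young adults and 874, 934, 879 and 451 FPKM in XX male young adults. XX male replicate 4 stood apart from its group and was still above every XO hermaphrodite library, and the difference was -1.80 (SE 0.25, limma adjusted p 4.22e-05). pdi-2, a disulphide isomerase needed for collagen, differed by -1.76, tag-320, now named pdi-6, by -1.65, and trap-2 of the translocon by -1.39. These differences between X and autosomal genes of a list are descriptions, and no test of a list was made.

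**Figure D3:**
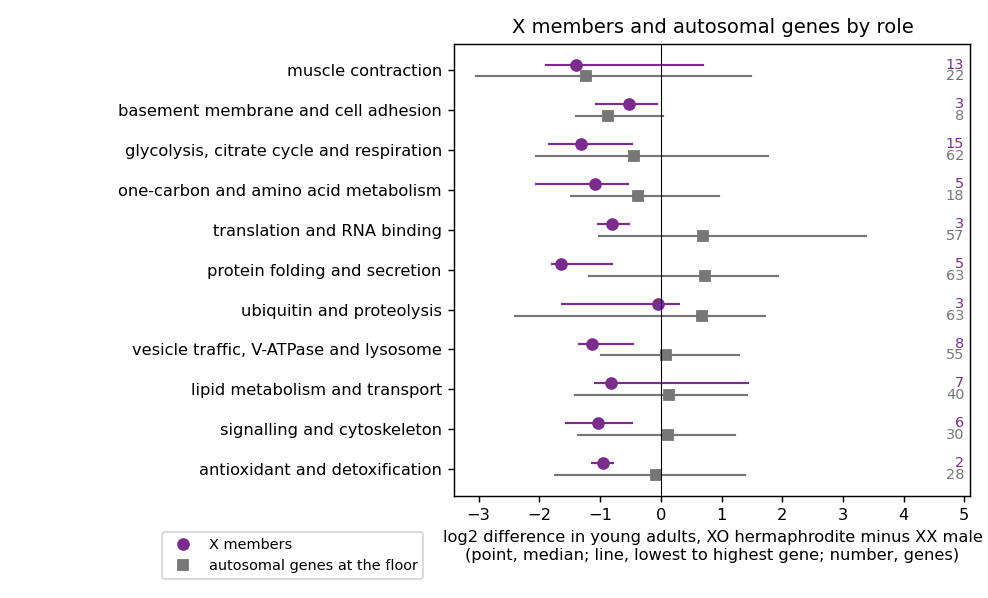
Median log2 difference in young adults, XO hermaphrodite minus XX male, for X members and for autosomal genes at the floor in 11 role lists, with lines from the lowest to the highest gene and the number of genes at the right. The X median is below 0 for every list, and the autosomal median is above 0 for translation, folding, proteolysis, vesicle traffic, lipid and signalling genes.

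Proteolysis had 3 X members and they differed among themselves. asp-3, an aspartyl protease of the lysosome, had 531, 472 and 558 FPKM in XO hermaphrodite young adults and 1512, 1545, 1444 and 1975 FPKM in XX male young adults, a difference of -1.63 (SE 0.15, limma adjusted p 1.2e-06). asp-4, of the same enzyme class, had 174.3, 166.5 and 169.1 FPKM in XO hermaphrodite young adults and 163.0, 133.1, 123.7 and 135.3 FPKM in XX male young adults, and was not called. cpr-6, a cathepsin B-like protease, averaged 586 ± 28.1 FPKM in XO hermaphrodite and 615 ± 163 FPKM in XX male young adults (SD, n = 3 and 4) and was not called. Of the 63 autosomal genes of this list, mostly of the proteasome and ubiquitin, 48 were higher and 6 lower.

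Of 8 X members in vesicle traffic and acidification, 7 were lower in XO hermaphrodite young adults, with a median of -1.13 against 0.08 for the 55 autosomal genes, of which 8 were lower and 15 higher. The V-ATPase, the proton pump of lysosomes and other acid compartments, gave vha-15 with -1.23, R03E1.2 (now vha-20) with -1.18 and vha-12 with -1.08, whose call was lost after quantile normalization (-0.48). lmp-1, a lysosomal membrane protein, averaged 78.4 ± 5.91 FPKM in XO hermaphrodite and 186.2 ± 14 FPKM in XX male young adults (SD, n = 3 and 4), a difference of -1.24. The small GTPases rab-6.2 and rab-14 differed by -1.34 and -0.46, and the dynamin dyn-1 by -0.81. The adaptor subunit aps-2 differed by -0.65 and was not called (limma adjusted p 0.0508).

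In young adults, lipid genes were the only role list with X members called in both directions, with 4 of 7 lower and 1 higher, a median of -0.82, and 9 lower and 8 higher among 40 autosomal genes. The peroxisomal enzyme dhs-28 and the acyl-CoA dehydrogenases acdh-7 and acdh-10 differed by -0.98, -1.09 and -1.07. The fatty acid-binding proteins lbp-3, lbp-1 and lbp-2 are neighbours on X and moved apart. lbp-2 had 380, 301 and 311 FPKM in XO hermaphrodite young adults and 142.8, 117.1, 113.2 and 115.1 FPKM in XX male young adults. It was higher in XO hermaphrodites, by 1.43 (SE 0.19, limma adjusted p 2.34e-05). lbp-1 had 110.3, 93.0 and 101.3 FPKM in XO hermaphrodite young adults and 172.9, 161.1, 142.3 and 265.9 FPKM in XX male young adults, a difference of -0.82 (limma adjusted p 0.0274). lbp-3 overlapped between the groups and was not called.

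Signalling and cytoskeletal members included ftt-2, a 14-3-3 protein that binds phosphorylated partners, with 323.9, 291.3 and 298.7 FPKM in XO hermaphrodite young adults and 931.7, 984.1, 905.7 and 814.1 FPKM in XX male young adults. The groups were far apart, at -1.57 (SE 0.16, limma adjusted p 2.72e-06). kin-2, the regulatory subunit of protein kinase A, differed by -1.51, the intermediate filament proteins ifc-2 and ifa-1 by -1.2 and -0.88, and spc-1, alpha spectrin, by -0.79. In all, 5 of the 6 X members of this list were lower, against 9 lower and 9 higher of 30 autosomal genes. Both X members of the antioxidant list, gst-36 and C11E4.1, were lower, against 5 lower and 10 higher of 28 autosomal genes. The 190 X members in no list had 143 lower and 4 higher, with a median of -1.01.

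Transcription factors were outside the lists. mxl-3 and mdl-1 encode proteins of the Max and Mad families, which share a helix-loop-helix fold and act on metabolic genes. mxl-3 had 58.9, 30.3 and 40.9 FPKM in XO hermaphrodite young adults and 266.2, 309.8, 275.0 and 280.6 FPKM in XX male young adults. mdl-1 had 60.1, 61 and 47.9 FPKM in XO hermaphrodite young adults and 290.8, 336.8, 278.7 and 275.3 FPKM in XX male young adults. Both were without overlap, and the differences were -2.73 and -2.37 (with SEs of 0.33 and 0.27 and adjusted p-values of 1.16e-05 and 7.53e-06 from limma). Young adult minus L3, mxl-3 and mdl-1 differed by -0.98 and -0.90 in XO hermaphrodites and by 1.29 and 1.43 in XX males, each past the limma threshold. The largest fall among X members was F53A9.1, a gene without an assigned function here, with 18.1, 32.4 and 19.4 FPKM in XO hermaphrodite young adults and 213.2, 238.7, 288.3 and 322.9 FPKM in XX male young adults. Its neighbour F53A9.6 fell by 2.76 and F53A9.8 by 2.89, where F53A9.1 fell by 3.49 on the log2 scale. F53A9.8 had 369.4, 392.7, 601.9 and 1924.3 FPKM in XX male young adults, so the size of its fall (SE 0.53) depends on replicate 4.

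The 5 X members that were higher in XO hermaphrodite young adults were T08D2.6, lbp-2, calu-1, plp-2 and F23A7.8. T08D2.6 had 97.8, 78.2 and 62.0 FPKM in XO hermaphrodite young adults and 21.3, 26.5, 22.2 and 28.6 FPKM in XX male young adults, a difference of 1.63 (SE 0.33, limma adjusted p 0.000746). calu-1, a calcium-binding calumenin of the secretory pathway, differed by 1.11, and plp-2, a nucleic acid-binding protein of the Pur-alpha type, by 0.87. calu-1, plp-2 and F23A7.8 lost the call after upper quartile scaling. The histone genes of the X went separate ways: his-71, a replication-independent histone H3.3, had 63.2, 48.0 and 62.8 FPKM in XO hermaphrodite young adults and 153.1, 133.6, 164.7 and 209.2 FPKM in XX male young adults. The linker histone his-24 averaged 141.8 ± 40.2 FPKM in XO hermaphrodite and 139.6 ± 36.5 FPKM in XX male young adults (SD, n = 3 and 4).

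**Figure D4:**
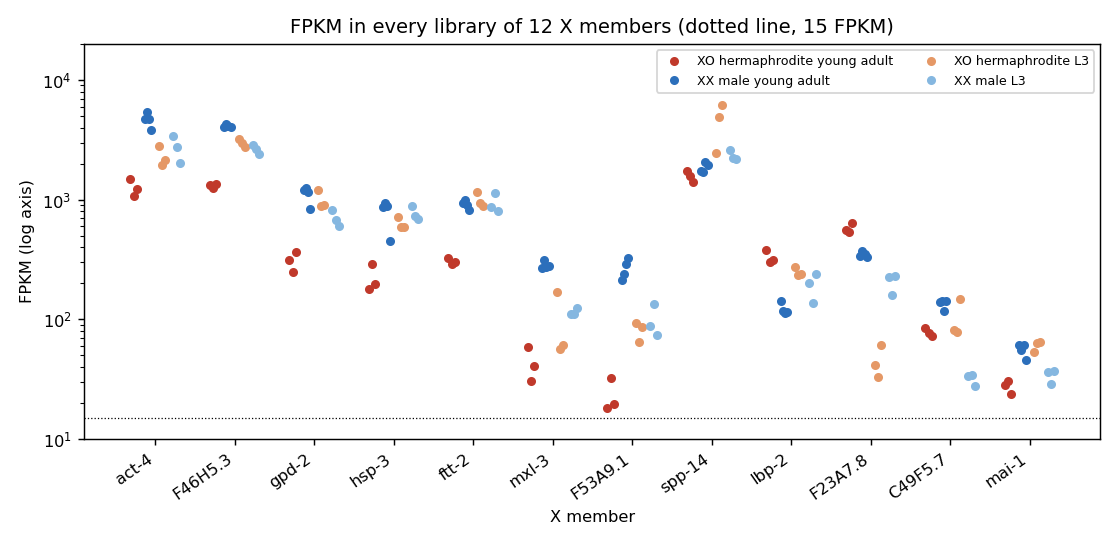
FPKM of 12 X members in each of the 13 libraries by group, on a log axis, with a dotted line at 15 FPKM. The 3 XO hermaphrodite young adult libraries lie above the 4 XX male young adult libraries for lbp-2 and F23A7.8, overlap them for spp-14 and lie below them for the other genes shown.

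At L3, 3 X members were higher and 4 lower in XO hermaphrodites, by limma with an adjusted p under 0.05, and 252 were not called. The background at this stage was 1.26% higher and 4.31% lower among all genes tested, so the members' shares of 1.16% and 1.54% were at or under it. No X member of any role list was called. The median difference was -0.18, with quartiles of -0.46 and 0.07, against -0.14 for the autosomal genes at the floor, of which 1.05% were higher and 2.53% lower. The groups did not overlap, with XO hermaphrodites higher in 12 and lower in 24 X members, where 4.91% and 13.2% of all genes tested did so, and 5.87% and 11.2% of the autosomal genes at the floor. Libraries of L3 larvae were less alike, with a median SD over the X members of 0.36 in XO hermaphrodites and 0.28 in XX males, against 0.20 and 0.19 in young adults on the log2 scale.

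These L3 counts depended on the fit and on the libraries. In a limma fit of the L3 libraries alone all 7 calls were lost and 0 X members were called in either direction. That fit called 4 higher and 5 lower of all 14476 genes tested, so calls were lost over all genes. At an unadjusted p under 0.05 the fit gave 9 X members higher and 14 lower. Without XO hermaphrodite replicate 1, which was shallow, as was replicate 2, and had the highest X median of its group, 15 X members were higher and 82 lower, with a median of -0.32, while the X minus autosome difference was -0.10. In that fit 731 of all 14628 genes tested were higher and 3717 lower, so calls rose over all genes. Upper quartile and median ratio scaling each gave 7 higher and 4 lower, and quantile normalization gave 6 and 3.

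The L3 calls included 2 neighbouring genes of unknown function, F23A7.8 and F23A7.4. F23A7.8 had 41, 32.5 and 60.2 FPKM in XO hermaphrodite L3 larvae and 225.8, 158.6 and 230.3 FPKM in XX male L3 larvae, a difference of -2.2 (SE 0.22, limma adjusted p 0.000225). Its order was turned round in young adults, with 552, 534 and 638 FPKM in XO hermaphrodites and 337, 374, 352 and 331 FPKM in XX males. The change of sign gave the largest positive interaction among X members, 2.92 (SE 0.30, limma adjusted p 5.98e-06). F23A7.4 differed by -1.67 at L3 (limma adjusted p 0.0334) and lost that call without XO hermaphrodite replicate 2 or XX male replicate 1 or 3. epn-1, an epsin of endocytosis, and rsd-3, an epsin-related protein needed for the spread of RNA interference, were lower in XO hermaphrodites at both stages, with differences of -0.99 and -1.33 in young adults and -0.84 and -0.82 at L3. Of the 6 fits that leave out an L3 library, epn-1 kept its L3 call only without XO hermaphrodite replicate 1, and rsd-3 only without that library or without XX male replicate 2. epn-1 also lost it with a pseudocount of 5 and with no filter on low values, and rsd-3 after quantile normalization.

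The 3 X members higher in XO hermaphrodite larvae were C49F5.7, mai-1 and C02F12.3. mai-1 and C02F12.3 lost the L3 call without XO hermaphrodite replicate 2 or 3 or XX male replicate 1, and C02F12.3 also without XX male replicate 3. mai-1, an inhibitor of the mitochondrial ATPase that lies in an operon with gpd-2 and gpd-3, had 53.2, 63.7 and 64 FPKM in XO hermaphrodite L3 larvae and 36.2, 28.7 and 37.0 FPKM in XX male L3 larvae. In young adults it had 28, 30.4 and 23.6 FPKM in XO hermaphrodites and 60.9, 54.7, 60.8 and 45.7 FPKM in XX males. The groups were apart in opposite directions at the 2 stages, by 0.81 (limma adjusted p 0.0234) at L3 and by -0.99 in young adults. gpd-2 and gpd-3 had the same pair of signs, but their L3 differences of 0.51 and 0.43 were not called. Whether reads were split between gpd-2 and gpd-3 was not tested. C02F12.3, named snet-1 in the current annotation and a regulator of odour learning, averaged 17.6 ± 0.43 FPKM in XO hermaphrodite and 41.9 ± 5.33 FPKM in XX male young adults (SD, n = 3 and 4), and 91.1 ± 4.73 FPKM in XO hermaphrodite and 54 ± 10.4 FPKM in XX male L3 larvae (SD, n = 3 each).

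The difference between the stages was tested directly by the interaction, the young adult difference minus the L3 difference. It was negative and called for 130 X members and positive and called for 6, by limma, with a median of -0.87. Among all genes tested 23.9% were called negative and 32.6% positive, and among the autosomal genes at the floor 14.1% and 43.2%, with a median of 0.60. The X minus autosome values per library, in which XO hermaphrodite young adults lay apart from the other 3 groups, come from the same genes and libraries. They describe the same pattern and are not separate support for it.

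**Figure D5:**
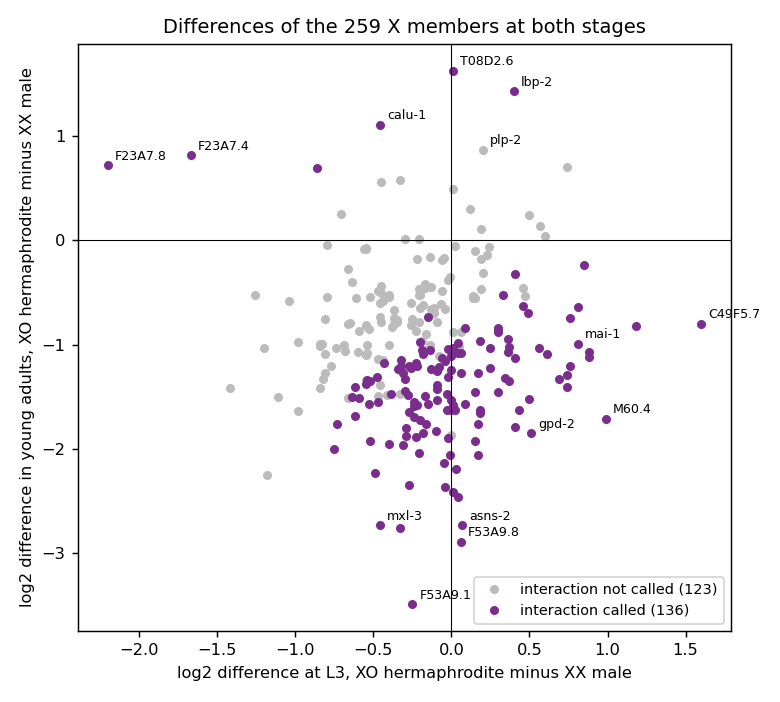
Log2 difference of each X member in young adults against that at L3, XO hermaphrodite minus XX male, with members of a called interaction in purple and the others in grey. X members gather below 0 on the young adult axis (median -1.04) and near 0 on the L3 axis (median -0.18), and F23A7.8 stands out with -2.2 at L3 and 0.72 in young adults.

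Between the stages within an animal, 170 X members were lower and 6 higher in young adult than in L3 XO hermaphrodites, with a median of -0.93. The background was 28.5% lower and 33.7% higher among all genes tested, and 21.3% and 36.5% among the autosomal genes at the floor. In XX males 48 X members were lower and 46 higher in young adults than in L3 larvae, with a median of -0.11, beside 28.5% lower and 21.7% higher among all genes tested and 31.4% and 10.1% among the autosomal genes at the floor. The libraries of the stages did not overlap, with young adults lower in 183 and higher in 10 X members of XO hermaphrodites (31.1% and 39.2% of all genes tested, 25.4% and 40.1% of autosomal genes at the floor). They were lower in 65 and higher in 56 X members of XX males (32.8% and 23.9%, and 34.6% and 12.3%). The split in XX males moved with scaling, to 20 lower and 87 higher after median ratio scaling and 94 lower and 24 higher after quantile normalization. All 14628 genes tested moved with it, to 2581 lower and 4407 higher and to 5928 lower and 2949 higher. The animals share no library between these 2 stage comparisons, but each shares its libraries with the comparisons of animals above. Of the 15 X members in energy metabolism, 15 were lower in young adult than in L3 XO hermaphrodites, and 2 were lower and 3 higher in XX males.

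Some X members followed the stage in both animals. H36L18.2, named lep-5 in the current annotation, a long noncoding RNA of the timing pathway that leads to the adult stage, averaged 85.6 ± 28.3 FPKM in young adult and 643 ± 143 FPKM in L3 XO hermaphrodites (SD, n = 3 each). In XX males it averaged 202.4 ± 27.8 FPKM in young adults and 793 ± 144 FPKM in L3 larvae (SD, n = 4 and 3). The stage differences were -2.92 and -1.96, both past the limma threshold. nspc-20 had the largest spread of all X members over the 13 libraries, at -2.76 between the stages in XO hermaphrodites and -2.72 in XX males. At the other end, ttr-36, K03A1.2, acl-1 and C36E6.1 varied least, with an SD of 0.25 to 0.30 on the log2 scale over the 13 libraries. acl-1 had 29.6, 27.4 and 32.6 FPKM in XO hermaphrodite young adults and 34.4, 33.0, 29.6 and 34.9 FPKM in XX male young adults, with a difference of -0.14 that was not called.

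Of the 255 members that could be placed among the protein-coding genes of the reference, 63 lay in 35 pairs of genes next to each other. The number of such pairs in a like set of other genes was not computed, so the count is a description only. In young adults the pair spp-3 and spp-2, saposin-like proteins, differed by -1.88 and -1.87, and spp-4 and spp-5 by -2.25 and -1.83. spp-2 had 72.4, 69.6, 47.4 and 466.1 FPKM in XX male young adults, so the size of its difference (SE 0.58) depends on replicate 4. The pair acdh-10 and acdh-7 differed by -1.07 and -1.09. Neighbours with opposite signs were lbp-1 with lbp-2, and tag-299 with plp-2 at -0.64 and 0.87.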

How the data were processed

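RNA of whole worms was selected on oligo(dT) beads and sequenced as stranded libraries, as the labels' protocols state. The values are FPKM, deposited by the authors as 1 table with a column for each library, per the file headers. The submitters' processing notes name Cufflinks 2.2.0. No aligner, annotation or genome build is named there, and coordinates are therefore left out. Of 20417 rows, 6 repeated others; of the 20411 genes left, 35 lacked a value in some library, and 20376 were used. Mitochondrial genes among those 35 were filled in for XX male young adults alone, and whether that group was quantified with other settings was not tested. The library deposited as reverted entered no comparison.

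The deposited FPKM were taken to log2(FPKM + 1), a scale that understates changes of low genes. A mean of 1 FPKM or more over the 13 libraries was required, and the 14628 genes that had it were tested with limma 3.58.1 in R 4.3.3 (4 group means, eBayes with trend, no covariates), with Benjamini-Hochberg adjustment over all of them and a threshold of 0.05. Medians over members were described without a test. Read totals are not part of the table, so no counting interval is given. The step size of low values put the L3 libraries at 0.224 to 0.92, and the young adult libraries at 0.62 to 1.45, of the depth of XX male young adult replicate 1.

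Members and the 12 role and 8 marker lists were chosen with earlier results of these data known. The rule for named genes took the largest called rises, falls and interactions without overlap, the most abundant members, the 3 highest of each list, and those nearest the floor or of smallest or largest spread; other genes named from the lists, his-71, his-24 and the neighbouring pairs were chosen after their values were seen. Current names came from the reference gene name table, which matched 257 members by ID, of which 48 have another name, and gene order came from the RefSeq table of assembly WBcel235. Pseudocount, scaling, filters, floor, single autosomes, fits by stage and libraries left out were varied. The pipeline was tested on simulated data. Replicate numbers were checked for pairing, and whether they pair the samples was not settled. The main fit treated the samples as unpaired.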

Additional observations from a re-analysis of the deposited data

Results flagged for a closer look

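In XX male young adults, a library stood far from the other 3 for 7 of 63 values examined, where chance gives about 1 in 20. Replicate 4 had 657.9 FPKM of M60.4, 193.7 of let-2, 797.0 of pdi-2, 451.4 of hsp-3 and 169.2 FPKM of acdh-10. Replicate 1 had 142.8 FPKM of lbp-2, and replicate 3 had 117.4 FPKM of C49F5.7.

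The animal difference changed between young adults and L3 larvae, by the limma interaction, for 130 X members in the negative and 6 in the positive direction. Positive interactions were 2.92 for F23A7.8, 2.49 for F23A7.4, 1.62 for T08D2.6, 1.56 for calu-1, 1.55 for nmy-1 and 1.03 for lbp-2. T08D2.6, calu-1 and lbp-2 lost the interaction call after upper quartile scaling. Of the genes named by the rule, those beyond -2 were F53A9.1 with -3.23, F53A9.8 with -2.94, asns-2 with -2.80, M60.4 with -2.70, F47B7.1 with -2.50, F53A9.6 with -2.43, C24A3.2 with -2.42, C49F5.7 with -2.40, gpd-2 with -2.36, mdl-1 with -2.34, mxl-3 with -2.27, mlc-2 with -2.2, B0410.3 with -2.07 and gpd-3 with -2.06. Between -2 and -1.5 were C02F12.3 with -1.95, F46H5.3 with -1.83, mai-1 with -1.81, spp-5 with -1.74, act-4 with -1.66, ftt-2 with -1.66, C14F11.1 with -1.65, asp-3 with -1.60, C11E4.1 with -1.54 and hsp-3 with -1.51. Smaller ones were unc-27 with -1.45, acdh-10 with -1.43, lmp-1 with -1.24, spp-14 with -1.09, pdi-2 with -1.03, dhs-28 with -1.02, ifc-2 with -0.98, H36L18.2 with -0.96 and R03E1.2 with -0.76. pdi-2 lost the call with a pseudocount of 0.1, with no filter on low values, and in 9 of the 13 fits that leave out a library. H36L18.2 lost it in 7 of those fits, dhs-28 in 5, spp-14 in 3 and R03E1.2 in 3. Quantile normalization removed the calls of unc-27, pdi-2, hsp-3, R03E1.2, dhs-28 and H36L18.2, and the replicate block those of spp-14 and dhs-28.

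The reverted TY2205 young adult library, used in no comparison, had 0.672 FPKM of xol-1 and 17.7 FPKM of sdc-3, where XO hermaphrodite young adults had 0 and 0.251 FPKM on average.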

How the results depend on the processing

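The direction of the X minus autosome difference in young adults held under every alternative run. It was -1.31 as a mean over genes, -1.40 with a floor of 30 FPKM, -1.32 with a mean of at least 15 FPKM, -1.44 against chromosome V alone, -1.1 for genes under 30 FPKM (6 X members) and -1.22 above 120 FPKM. Leaving out 1 library gave -1.70 to -1.57. At L3 it lay between -0.13 and 0.06, so its sign is not fixed. X members lower in young adults numbered 372 of 585 with a floor of 5 FPKM, 121 of 151 with 30 FPKM and 417 of 631 with a mean of at least 15 FPKM. Those higher numbered 2 with upper quartile scaling, 12 with quantile normalization, 18, 3 and 44 with these other floors, and 11 in a fit of young adults alone.

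At L3, those higher numbered 7 with either upper quartile or median ratio scaling, 6 with quantile normalization, 6 with a floor of 5 FPKM, 0 with 30 and 6 with a mean of at least 15 FPKM. Those lower numbered 18 with a floor of 5 FPKM and 17 with a mean of at least 15 FPKM. A fit of L3 alone called 0 X members in each direction by limma, and 4 higher and 5 lower of all 14476 genes tested. Leaving out 1 library gave 1 to 15 higher and 1 to 82 lower. The 15 and 82 came without XO hermaphrodite replicate 1, where 731 and 3717 of all 14628 genes tested were called.

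Negative interactions numbered 199 with upper quartile scaling, 209 with a floor of 5 FPKM and 247 with a mean of at least 15 FPKM, and positive ones 3, 20 and 42, with 6 to 15 when 1 library was left out. For XO hermaphrodites by stage, 339, 103 and 402 were lower with floors of 5 and 30 FPKM and a mean of at least 15 FPKM, and 19, 3 and 40 higher. Those higher numbered 2 with upper quartile and 11 with median ratio scaling, and 4 to 15 when 1 library was left out. For XX males by stage, 87 were higher and 20 lower with median ratio scaling and 24 and 94 with quantile normalization. Among all 14628 genes tested the counts were 4407 higher and 2581 lower with median ratio scaling, and 2949 and 5928 with quantile normalization. With a floor of 5 FPKM 168 were lower, with 30 FPKM 25, and with a mean of at least 15 FPKM 208, with 92 higher.

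Quantile normalization turned eef-1A.2 in young adults to 0.02 and the interaction of spp-14 to 0.13. With replicate numbers as a replicate block, 0 X members were called at L3 (7 higher and 17 lower at an unadjusted p under 0.05), and 11 were higher and 211 lower in young adults. Over all genes the block gave 0 higher and 2 lower of 14476 at L3, and 5606 and 5646 of 14625 in young adults. By the numbers of the sample titles, XX male replicate 4 had no partner in that block and gave the difference no information. The deposited columns number XO hermaphrodite young adult replicates 2 and 3 as 3 and 4, so the true partners may be others. Same-number correlations ran from -0.0616 to 0.298, with 0.0467, 0.298 and 0.198 in young adults. Whether the libraries were paired was therefore not settled. Scaling moved the median of all genes in young adults, from -0.11 to -0.37 with upper quartile scaling and 0.27 with quantile normalization, while the X median stayed between -1.40 and -1.04. The cause of these moves was not tested. Relative depth was lowest in replicates 1 and 2 of both L3 groups.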

Other observations

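The reverted TY2205 young adult library, which its label sets aside, kept 252 of the 259 X members at or above 15 FPKM and had 7 under it. Its median X member had 48.5 FPKM and its X minus autosome value was -0.90 on the log2(FPKM + 1) scale, beside -0.87 to -0.65 in XO hermaphrodite young adults and 0.68 to 0.98 in XX male young adults. For 85 X members its value lay between the means of these 2 groups. It had 585.0 FPKM of lbp-2 and 1292 FPKM of F23A7.8, above every XO hermaphrodite young adult library, and 900 FPKM of act-4 and 104.3 FPKM of let-2, below every one.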
